A study of Danio rerio with 6 samples.

Results

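Genes of monoamine and acetylcholine signalling were followed in the adult zebrafish retina, in samd7 mutants and in wild-type fish. They were chosen by gene symbol: dopamine (drd), serotonin (htr), adrenergic (adra, adrb), nicotinic (chrn) and muscarinic (chrm) receptors, with the enzymes and transporters that make, load, recapture and break down these transmitters. This rule was met by 64 of the 14781 genes measured. Some genes of these families, such as chrna3, chrnb2 and htr7, were not among the genes measured, so counts per family below are not of whole families. The 3 mutant fish were homozygous for the stl888 allele of samd7, whose product is a photoreceptor partner of Polycomb complexes, and the 3 controls were wild type. All fish were males of 3 months bred from crosses of heterozygotes. Each library held RNA of both retinas of 1 fish, so replicates were separate animals. The comparison was mutant against wild type.

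Dopamine is the main catecholamine of the retina. It is released by a sparse class of amacrine and interplexiform cells, follows light and the circadian clock, and reaches photoreceptors by diffusion, where D4-type receptors lower cyclic AMP in several vertebrates. Acetylcholine is released by starburst amacrine cells, known for their part in direction selectivity, and acts on nicotinic channels and muscarinic receptors of amacrine and ganglion cells. Serotonin is made by amacrine cells of fish and is also the precursor of melatonin in photoreceptors.

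Reads in genes numbered 20186266, 20653051 and 24352510 in the mutant libraries, and 29117026, 22529193 and 22777234 in those of wild type. Values below are normalised read counts, that is, reads divided by 1 size factor per library. A log2 change is the mutant mean of log2(value + 1) less that of wild type, and errors are SD over n = 3 fish per genotype. Transcript lengths were not used here, so levels are compared between fish and not between genes. The samd7 transcript itself spread over 2471 to 5121 in mutants and 4196 to 5186 in wild type and so checks no genotype label. Retinal cell markers were present in every library. Summed over 9 rod genes, the fish stood apart, at 548220, 2008781 and 1585534 in mutant replicates 1, 2 and 3 and at 1874136, 2599339 and 3009354 in wild-type replicates 1, 2 and 3. The summed 14 ganglion cell genes were at 29520 to 32762 in mutants and 15873 to 23086 in wild type, without overlap. Of these 14, sncga was called higher (log2 change 0.56, adjusted p = 0.0380 by limma). The call was kept with edgeR (adjusted p = 0.0399), with DESeq2 (1.62e-06) and without wild-type replicate 1. It was lost without any other library (0.0664 to 0.178), with limma without trend (0.0817) and with the replicate number as a block (0.0537). Of 7 cell cycle genes 6 rose (median log2 change 2.16), but 0 or 1 without mutant replicate 1 or 3 or wild-type replicate 2 or 3. Of 9 cone genes 1 rose and 3 fell, and of the 9 rod genes nrl fell (adjusted p = 0.0408 by limma). Without each library in turn 0 or 1 cone genes rose and 2 to 4 fell, and no rod gene fell without mutant replicate 1 or 3 or wild-type replicate 2 or 3. The part of these shifts in the member values was not tested. The summed 11 amacrine genes overlapped, at 84517 to 94443 in mutants and 71542 to 102379 in wild type, with the highest value in wild-type replicate 1, and none of the 11 was called. Of 22 skeletal muscle genes 3 were at 0 in all 6 libraries (tnni2a.4, pvalb1 and pvalb2), and the sum was 549 to 642 in mutants and 624 to 917 in wild type.

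No member gene passed the test across all genes. A filter that asked for 10 normalised reads or more in 3 libraries kept 46 of the 64 members, and by limma with Benjamini-Hochberg adjustment 0 of these 46 had an adjusted p under 0.05, against 2.61% of all 11335 genes tested. At an unadjusted p under 0.05, limma gave 12 of the 46 members, 7 higher and 5 lower in the mutants, which is 26.1% beside 21.0% of all genes. The genotypes did not overlap for 13 of the 46, which is 28.3% beside 28.1% of all genes. By the quasi-likelihood test of edgeR 0 members were called, against 2.25% of all genes. DESeq2 called 5 of 46 (10.9%), against 10.8% of all genes, and the authors' deposited table has an adjusted p under 0.05 for 5 of 49 (10.2%), against 10.2% of all its genes. These shares of members were near the shares of all genes or below them, apart from the unadjusted p. The median log2 change was 0.095 over the members and 0.013 over all genes.

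**Figure D1:**
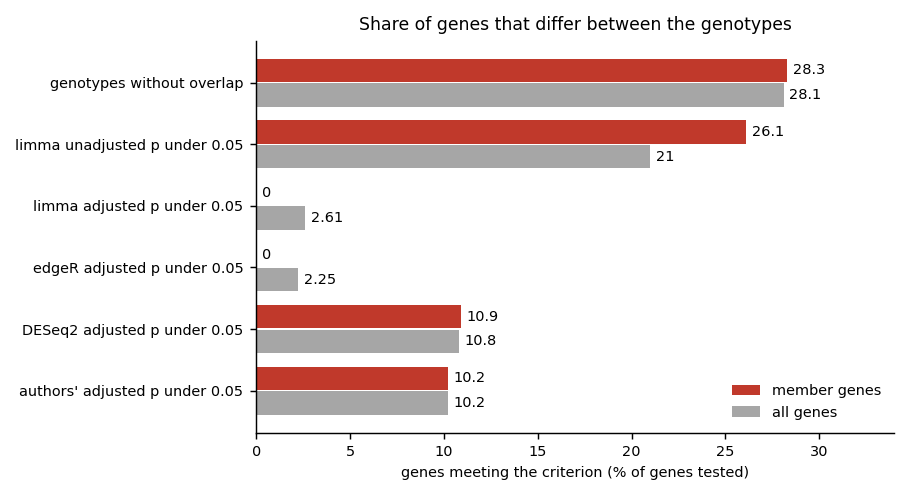
Percentage of genes that differ between samd7 mutants and wild type by 6 criteria, for member genes (red bars) and all genes (grey bars). By the criterion of groups without overlap the bars stand at 28.3% and 28.1%, by limma at 0% and 2.61%, and by DESeq2 at 10.9% and 10.8%.

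The intervals show what the 6 fish could resolve. Over the 46 members the median SE of a log2 change was 0.27 and the median reach of a 95% interval was 0.65 to either side, against 0.19 and 0.45 over all genes tested. Changes beyond 1 on the log2 scale were estimated for 6 members (13.0%), beside 6.59% of all genes. These 6 were tph2, ddc, drd4b and slc6a4a, lower in the mutants, and htr1b and adra2c, higher. Of these, htr1b passed the filter only through the mutants, where it was high. Scaling by library totals moved the median of all genes to 0.36. Under that scaling 7 of 47 members were called higher (14.9%), against 17.5% of all genes called higher, and none was called lower. The signs of 10 of the 46 members turned from negative to positive with it, namely mao, slc6a4b, chrna5, htr2b, adra2b, th, chrna10a, adra2da, adrb2a and chrnb1l, and those of all 46 were kept with TMM scaling.

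**Figure D2:**
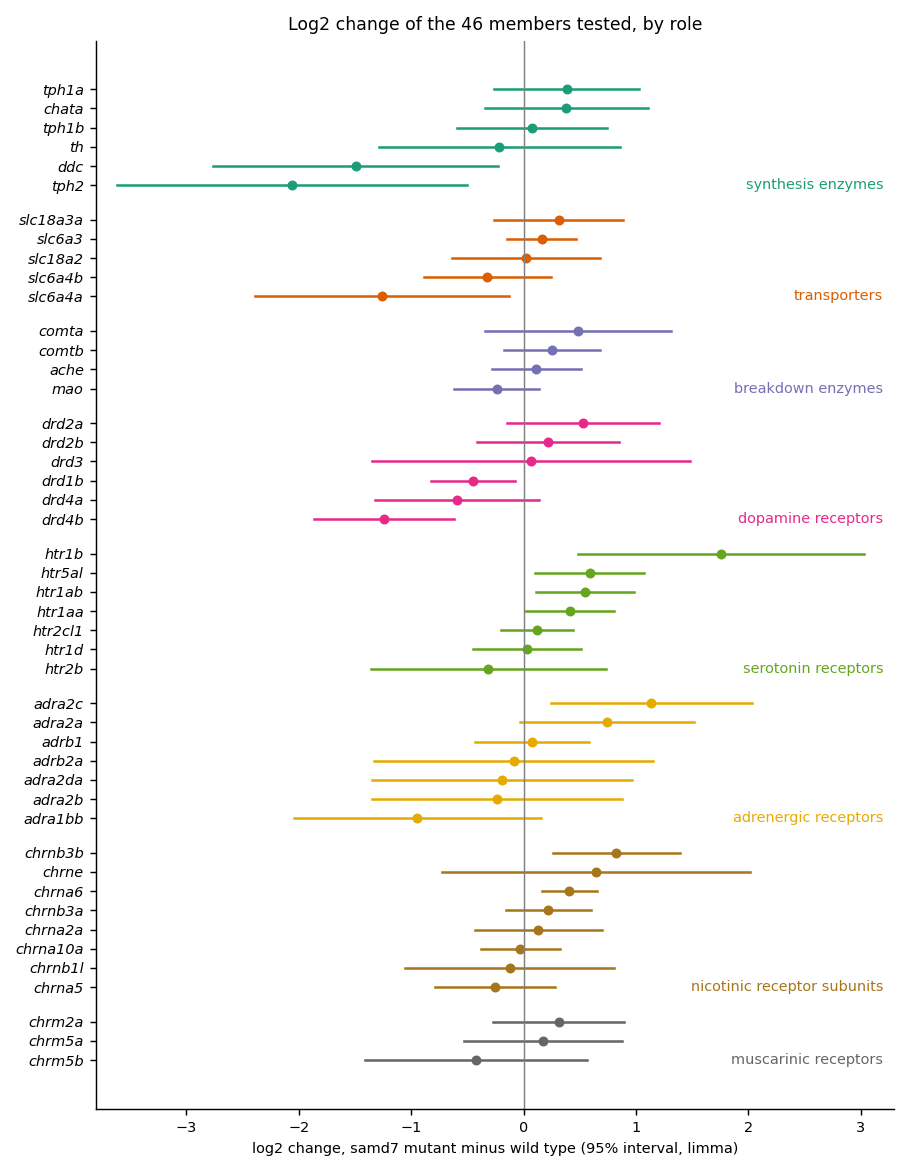
Log2 change (mutant minus wild type, x axis) of each of the 46 members tested, with its 95% interval from limma, grouped by role (colours). Most intervals span 0, those of tph2, ddc, slc6a4a, drd1b and drd4b lie below it, and those of htr1b, htr5al, htr1ab, htr1aa, adra2c, chrnb3b and chrna6 above it.

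Among the enzymes that make the transmitters, the largest estimates were for tph2 and ddc, both lower in the mutants, and that of th was small beside its error (log2 change -0.22, SE 0.45). Of the 8 synthesis genes 6 were tested and 0 called. The gene tph2 encodes a tryptophan hydroxylase, the first and rate-limiting step to serotonin. It was at 49.5, 107 and 19.5 in the mutants, against 185, 130 and 332 in wild type. All 3 mutants lay below all 3 wild-type fish, yet each genotype spread widely. Its log2 change was -2.06 (SE 0.65, adjusted p = 0.147 by limma), and DESeq2 called it (adjusted p = 0.0210). The aromatic amino acid decarboxylase ddc makes both dopamine and serotonin from their precursors. It was at 316, 1288 and 503 in the mutants, against 2315, 1198 and 1657 in wild type. Mutant replicate 2 lay above the lowest wild-type fish, so the genotypes overlapped (log2 change -1.49, SE 0.53, adjusted p = 0.183 by limma). In bulk retina, fewer cells of a type and less RNA per cell cannot be told apart.

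The other tryptophan hydroxylases had estimates above 0. The gene tph1a was at 1663, 2245 and 2002 in mutants and at 981, 1801 and 1896 in wild type (log2 change 0.39, 95% interval -0.26 to 1.03). Only wild-type replicate 1 was far below the rest, and the genotypes overlapped. The gene tph1b averaged 97.8 ± 15.2 in mutants and 95.1 ± 27.7 in wild type. Tyrosine hydroxylase, the rate-limiting enzyme of dopamine synthesis, is encoded by th. The gene th had 68 reads over the 3 mutant libraries and 68 over the 3 wild-type libraries, or 28.9, 11.5 and 22.0 normalised reads in mutants and 25.4, 29.0 and 16.1 in wild type. These values overlapped fully, and the interval of the log2 change, -1.29 to 0.85, shows that only large differences could have been resolved. The gene th2 was listed at 0 in every library, as were chatb, comtd1 and chrng. A count of 0 allows up to 3 reads per library, which is 2.54 to 3.48 normalised reads, and covers counting error only. The choline acetyltransferase chata was at 1308, 1212 and 928 in mutants and at 1387, 652 and 734 in wild type (log2 change 0.38, SE 0.30, adjusted p = 0.518 by limma). Without wild-type replicate 1 its log2 change was 0.72 (adjusted p = 0.0718).

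Of the vesicular and plasma membrane transporters 5 of 6 were tested and 0 called. The serotonin reuptake transporter slc6a4a was at 17.7, 8.37 and 21.2 in the mutants, against 26.3, 32.4 and 57.4 in wild type. The genotypes did not overlap, on 52 mutant and 108 wild-type reads (log2 change -1.26, SE 0.48, adjusted p = 0.199 by limma). Its copy slc6a4b averaged 46.7 ± 4.01 in mutants and 58.9 ± 8.57 in wild type, with overlap (log2 change -0.32). The dopamine transporter slc6a3, which clears dopamine from the extracellular space, was at 431, 382 and 449 in mutants and at 403, 336 and 389 in wild type. This was among the narrowest intervals of the members, from -0.14 to 0.47 on the log2 scale. The vesicular monoamine transporter slc18a2 averaged 84.3 ± 11.9 in mutants and 84.9 ± 24.0 in wild type (log2 change 0.02, 95% interval -0.63 to 0.68).

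The vesicular acetylcholine transporter slc18a3a was at 2057, 1739 and 1745 in the mutants, against 2200, 1241 and 1197 in wild type. Wild-type replicate 1 was above all mutants and the other wild-type fish below them. With all fish the log2 change was 0.31 (SE 0.24, adjusted p = 0.510 by limma), and without wild-type replicate 1 slc18a3a was called higher (log2 change 0.60, adjusted p = 0.0457). In the same fish chata, the acetylcholinesterase ache (1966, against 1323 and 1316 in wild-type replicates 2 and 3), the receptor htr1d and the amacrine gene sum were also the highest of wild type. This was not particular to cholinergic genes. Members of other roles were highest there too, among them ddc, drd1b, htr1aa, htr2b and slc6a3. Yet others were the lowest of wild type there, among them drd4a, drd4b, tph1a and mao. Wild-type replicate 1 also had the highest wild-type sums of bipolar (93045, against 53653 and 72021), ganglion cell (23086, against 15873 and 20183) and Müller glia genes (299410, against 285195 and 283691). Its rod and horizontal cell sums were the lowest of wild type, and its cone sum lay between the others. Lowest of wild type too was its sum of pigment epithelium and melanocyte genes (12150, against 36491 and 31300). That sum was 27625, 9747 and 49319 in mutant replicates 1, 2 and 3. The part of amacrine or other cell RNA in the values of slc18a3a, chata, ache and htr1d was not tested. In RefSeq's gene table for GRCz12tu, chata and slc18a3a are neighbours, as are chatb and slc18a3b, the arrangement known as the cholinergic locus. Reads of such neighbours can be hard to assign, and strand use in counting was not given in the sources used here. Of slc18a3b, 4 reads were counted over the mutants and 2 over wild type, and it was not tested.

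Of the 5 genes grouped by symbol as enzymes that break the transmitters down 4 were tested and 0 called. The gene not tested, comtd1, was placed here by its symbol alone. The monoamine oxidase mao, which oxidises dopamine, serotonin and noradrenaline, was at 1351, 1662 and 1361 in mutants and at 1382, 1911 and 1902 in wild type (log2 change -0.24, 95% interval -0.62 to 0.14). Its sign turned with library totals as the scaling (0.11). The acetylcholinesterase ache averaged 1632 ± 54.5 in mutants and 1535 ± 373 in wild type (log2 change 0.11, 95% interval -0.28 to 0.51). Of the catechol-O-methyltransferases, comtb averaged 702 ± 149 in mutants and 581 ± 67.3 in wild type, and comta 23.5 ± 3.38 in mutants and 16.7 ± 3.79 in wild type. The comta values did not overlap, on 75 mutant and 49 wild-type reads (log2 change 0.48, adjusted p = 0.476 by limma).

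Dopamine receptors held the member closest to the threshold, the D4-type receptor drd4b. It was at 498, 451 and 720 in the mutants, against 922, 1452 and 1602 in wild type. All 3 mutants were below all 3 wild-type fish, and the ratio of the means was 0.420 (log2 change -1.24, SE 0.26, 95% interval -1.86 to -0.62, adjusted p = 0.0622 by limma). Its adjusted p in the alternatives ran between 0.000399 with DESeq2 and 0.217 without mutant replicate 1, and the edgeR value was 0.0652. Without wild-type replicate 1 it was called (log2 change -1.48, adjusted p = 0.0302). The symbol drd4b is also listed in RefSeq as an older name of drd4-rs, which has a row of its own in the table with 17 mutant and 14 wild-type reads and was not tested.

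The paralog drd4a was at 2480, 5064 and 3489 in the mutants, against 3954, 5609 and 6765 in wild type (log2 change -0.59, SE 0.30, adjusted p = 0.330 by limma). The genotypes overlapped. From lowest to highest, the 6 fish stood in the same order for drd4a as for the summed rod genes, an order that 51 of the 11335 genes tested had (0.45%). Among the members tested drd4a was the only gene with it. Most of the rod sum was rho and gnat1 (410623 and 84384 of 548220 in mutant replicate 1). Of the other rod genes pde6a, rom1a and rom1b had this order, and saga, sagb, nrl and nr2e3 did not. For drd4b the order was that of the rod sum within wild type but not within the mutants. There replicate 2 had the highest rod sum and the least drd4b. The part of rod RNA in the levels of both receptors was not tested.

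**Figure D3:**
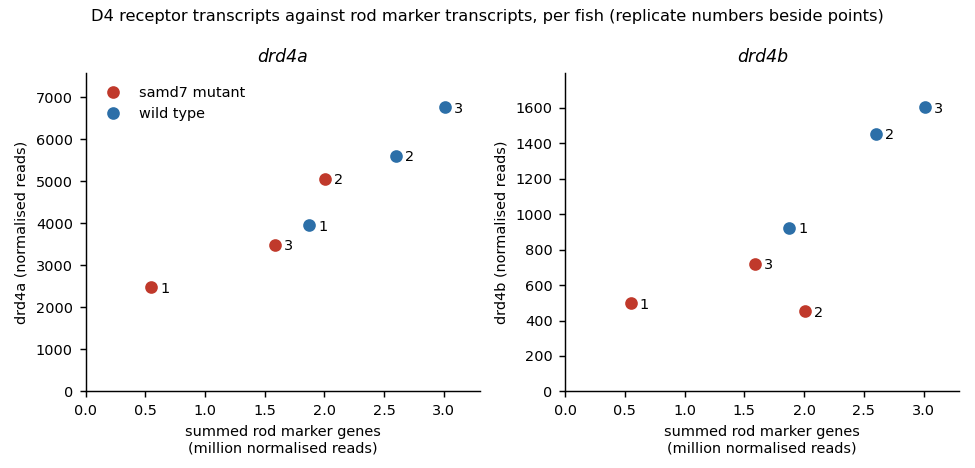
Normalised reads of drd4a (left) and drd4b (right) against the summed normalised reads of 9 rod marker genes, 1 point per fish (red, samd7 mutant; blue, wild type), numbered by replicate. Most of that sum was rho and gnat1. The drd4a points climb from mutant replicate 1 (2480) to wild-type replicate 3 (6765) in the order of the rod sum, while drd4b of mutant replicate 2 (451) lies far below wild-type replicate 1 (922) at a similar rod sum.

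The D1-type receptor drd1b, which raises cyclic AMP, was at 375, 349 and 289 in the mutants, against 535, 414 and 439 in wild type. The genotypes did not overlap (log2 change -0.45, SE 0.16, adjusted p = 0.173 by limma). The receptors drd2a, drd2b and drd3, which like the D4 type lower cyclic AMP and include the autoreceptors of dopamine neurons, were near or above wild type. The gene drd2a averaged 70.2 ± 10.3 in mutants and 49.2 ± 14.4 in wild type (log2 change 0.53, adjusted p = 0.341 by limma), and drd2b averaged 66.7 ± 9.04 in mutants and 58.0 ± 13.1 in wild type. Both overlapped between the genotypes. The gene drd3 was at 18.5 ± 7.58 in mutants and 19.4 ± 10.9 in wild type. Of 9 dopamine receptor genes 6 were tested, and drd7, drd2l and drd4-rs were under the filter.

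**Figure D4:**
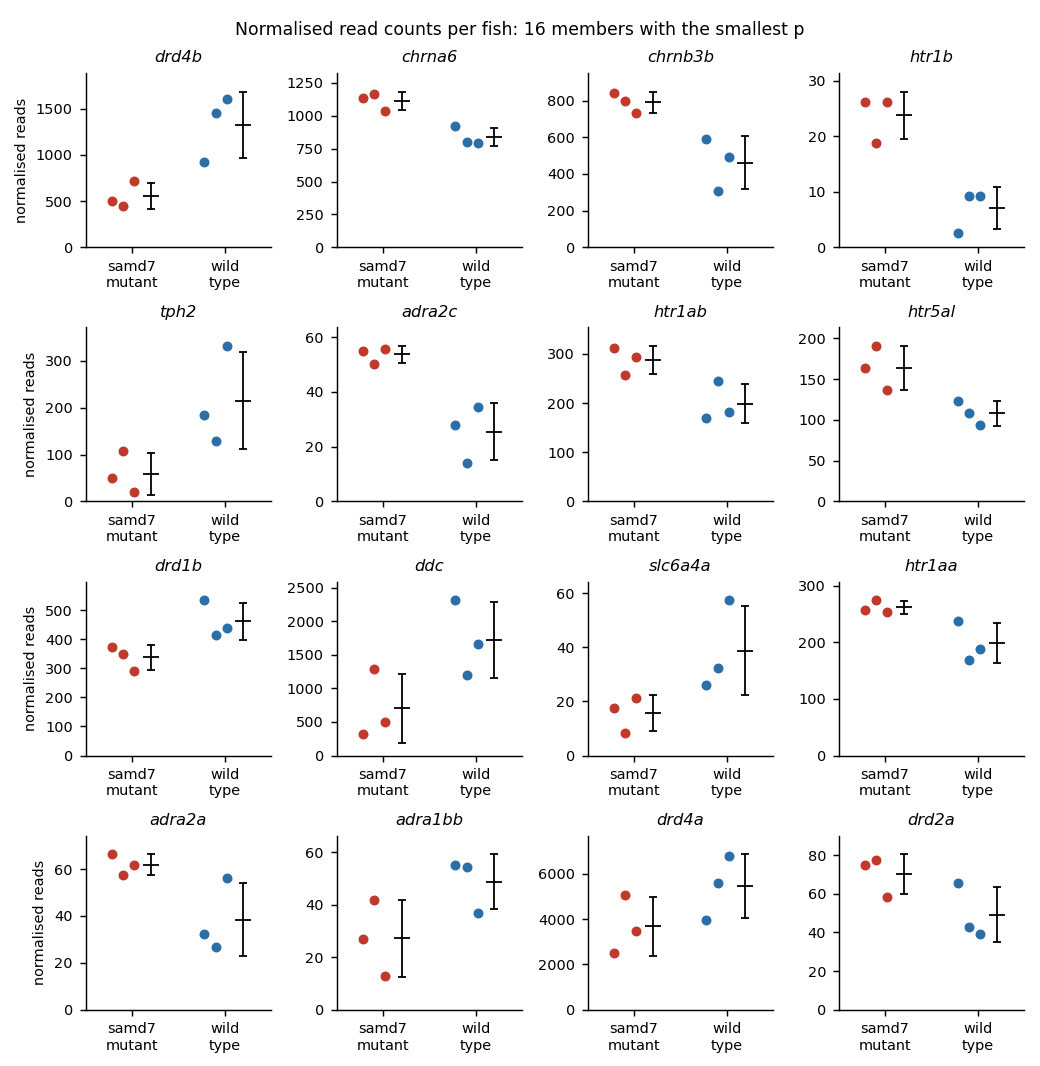
Normalised read counts of the 16 members with the smallest p, 1 panel per gene, with mutants (red) left of wild type (blue), 1 point per fish, and mean ± SD beside the points (n = 3). The drd4b points lie at 451 to 720 in mutants and 922 to 1602 in wild type, and htr1b has 26.2 or fewer normalised reads in each fish.

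Of the serotonin receptors htr1b, htr1ab, htr1aa and htr5al were higher in every mutant than in any wild-type fish, and none passed the test. Of 8 genes 7 were tested and 0 were called. A positive log2 change was found for 6 of the 7, where 51.6% of all genes tested had one. The median was 0.41 beside 0.013 over all genes. With library totals 7 of 7 were positive, beside 38 of the 46 members and a median of 0.36 over all genes. The genotypes did not overlap for 4 of the 7, against 28.1% of all genes. These counts and medians include htr1b, which passed the filter only through the mutants, where it was high. Its sign and lack of overlap were thus nearly fixed by the filter. Of the 4 genes without overlap, the htr1 genes encode receptors that act on serotonin neurons and on other neurons to reduce firing and release. The gene htr1b was at 26.1, 18.8 and 26.2 in the mutants, against 2.63, 9.27 and 9.19 in wild type. This rested on 77 mutant and 19 wild-type reads (log2 change 1.76, SE 0.54, adjusted p = 0.134 by limma), and DESeq2 called it (adjusted p = 0.0439).

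The pair of 5-HT1A receptors had like estimates. The gene htr1ab was at 313, 256 and 293 in the mutants, against 170, 244 and 181 in wild type (log2 change 0.54, SE 0.18, adjusted p = 0.163 by limma). The gene htr1aa was at 257, 274 and 253 in the mutants, against 238, 169 and 187 in wild type (log2 change 0.41, SE 0.17, adjusted p = 0.224 by limma). In either gene the lowest mutant was a little above the highest wild-type fish. The receptor htr5al, a synonym of htr5ab in RefSeq, was at 163, 190 and 136 in the mutants, against 123, 108 and 93.0 in wild type (log2 change 0.59, SE 0.20, adjusted p = 0.172 by limma). The Gi-coupled htr1d was at 883, 964 and 940 in the mutants, against 1272, 772 and 767 in wild type, with overlap and a log2 change of 0.03. The Gq-coupled htr2cl1 averaged 675 ± 58.6 in mutants and 623 ± 89.7 in wild type (95% interval of the log2 change -0.20 to 0.44), and htr2b averaged 100 ± 30.9 in mutants and 134 ± 67.5 in wild type. The gene htr5a, a synonym of htr5aa in RefSeq, was under the filter on 15 mutant and 26 wild-type reads, with overlap.

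Of 11 adrenergic receptor genes 7 were tested and 0 called, with 3 positive and 4 negative log2 changes, or 6 and 1 with library totals as the scaling. With that scaling 38 of the 46 members had a positive log2 change. The alpha-2 receptors, which lower cyclic AMP and act as autoreceptors of noradrenaline neurons, had positive estimates for adra2c and adra2a and negative ones for adra2b and adra2da, both positive with library totals. The gene adra2c was at 55.1, 50.2 and 55.9 in the mutants, against 28.0, 13.9 and 34.5 in wild type, without overlap (log2 change 1.14, SE 0.38, adjusted p = 0.158 by limma). The gene adra2a was at 66.3, 57.5 and 61.8 in the mutants, against 32.4, 26.6 and 56.3 in wild type (log2 change 0.74, SE 0.33, adjusted p = 0.257 by limma). Its values missed overlapping only by the gap between 57.5 and 56.3. The alpha-2 genes adra2b and adra2da overlapped, with log2 changes of -0.24 and -0.19. The Gq-coupled alpha-1 receptor adra1bb averaged 27.2 ± 14.6 in mutants and 48.8 ± 10.4 in wild type, with overlap (log2 change -0.94, adjusted p = 0.304 by limma). The beta receptor adrb1, which raises cyclic AMP, averaged 178 ± 22.5 in mutants and 171 ± 41.2 in wild type. The beta receptor adrb3a was under the filter, at 6.53, 2.09 and 5.08 in the mutants, against 18.4, 9.27 and 8.04 in wild type, on 15 and 36 reads.

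Nicotinic receptor subunits of the neuronal kind included a pair with higher estimates in the mutants, chrna6 and chrnb3b. In mice these alpha6 and beta3 subunits form receptors of ganglion cells and their axons and of dopamine neurons. Of 14 subunit genes 8 were tested and 0 called by limma. Of the 8 log2 changes 5 were positive, beside 51.6% of all genes tested. With library totals 8 of 8 were positive, beside 38 of the 46 members and a median of 0.36 over all genes. The gene chrna6 was at 1137, 1167 and 1035 in the mutants, against 922, 803 and 793 in wild type. All mutants were above all wild-type fish, by a ratio of the means of 1.33 (log2 change 0.41, SE 0.10, 95% interval 0.16 to 0.65, adjusted p = 0.0905 by limma). The gene chrnb3b was at 844, 800 and 732 in the mutants, against 589, 306 and 490 in wild type (log2 change 0.83, SE 0.24, adjusted p = 0.116 by limma). DESeq2 called both, with adjusted p of 0.0274 for chrna6 and 0.0329 for chrnb3b. The 14 ganglion cell marker genes tested had positive log2 changes, with a median of 0.73 and a summed level that did not overlap, as given above. The part of ganglion cell RNA in chrna6 and chrnb3b was not tested.

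The other neuronal subunits that were tested had overlapping genotypes. The gene chrnb3a, separated from chrna6 by 1 protein-coding gene in the GRCz12tu table, averaged 883 ± 43.7 in mutants and 769 ± 170 in wild type (log2 change 0.22). The gene chrna10a, whose counterpart in mice serves the efferent synapse of hair cells, averaged 532 ± 30.5 in mutants and 548 ± 93.3 in wild type (95% interval of the log2 change -0.38 to 0.32). The genes chrna2a and chrna5 had log2 changes of 0.13 and -0.25. The muscle-type subunits chrna1, chrnb1, chrnd and chrng were under the filter, with 26, 1, 4 and 0 reads over the 3 mutants and 24, 1, 8 and 0 over the 3 wild-type fish. The subunit chrne was tested at 15.2 ± 7.07 in mutants and 9.85 ± 5.89 in wild type. The copy chrnb1l was tested at 48.9 ± 25.0 in mutants and 49.5 ± 8.26 in wild type, with overlap (log2 change -0.12). The neighbouring copies chrnb1 and chrnb1l may share reads, so their division is uncertain. The neuronal subunit chrna4b was under the filter on 29 mutant and 13 wild-type reads, without overlap.

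The muscarinic receptors in the table were chrm2a, chrm5a and chrm5b, all tested, 0 called and all overlapping. The Gi-coupled chrm2a was at 348, 316 and 405 in the mutants, against 263, 215 and 409 in wild type (log2 change 0.31, SE 0.25, adjusted p = 0.518 by limma). The Gq-coupled chrm5a averaged 49.7 ± 10.4 in mutants and 44.0 ± 9.71 in wild type, and chrm5b 10.8 ± 2.61 in mutants and 14.9 ± 3.98 in wild type.

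Ratios of gene copies within a fish were taken for 8 pairs of tested members whose symbols differ in a final a or b, on log2(value + 1). The genes adra2a and adra2b also meet this rule but were left out, so the counts and the adjustment do not cover them. The genotypes did not overlap in 2 of the 8, where they did not overlap for 28.1% of all single genes tested. No such share was taken over other pairs of gene copies. The log2 ratio of drd4b to drd4a was -2.32, -3.49 and -2.27 in mutant replicates 1, 2 and 3, against -2.10, -1.95 and -2.08 in wild type. Mutant replicate 2 stood apart, while the other mutants were just below wild type. The difference of the means was -0.65, and -0.25 without mutant replicate 2. The log2 ratio of chrnb3b to chrnb3a was -0.013, -0.22 and -0.24 in the mutants, against -0.71, -1.18 and -0.40 in wild type. The exact permutation test, two-sided, gave p = 0.1 for either ratio, the smallest that 3 against 3 can give, and 0.4 when adjusted over the 8 pairs. The other 6 pairs, of tph1, slc6a4, comt, drd2, htr1a and chrm5 genes, overlapped, with differences from -0.60 for chrm5b to chrm5a to 0.94 for slc6a4b to slc6a4a, a value that was 0.63 with a pseudocount of 10, 0.49 without mutant replicate 2 and 0.50 without wild-type replicate 3.

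**Figure D5:**
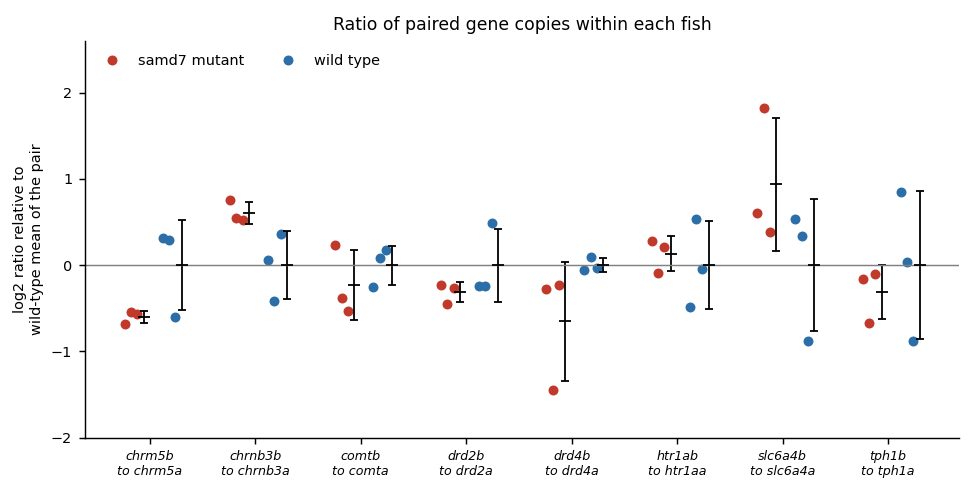
Log2 ratio of gene copies in each fish for 8 pairs, relative to the wild-type mean of the pair (y axis), with mutants (red) left of wild type (blue) and mean ± SD beside the points (n = 3). The genotypes are apart for chrnb3b to chrnb3a and, with mutant replicate 2 far below the rest, for drd4b to drd4a.

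Genes that work with these receptors and enzymes were mostly without a call. Of 20 tested G protein and cyclic AMP genes 1 fell and 0 rose, with a median log2 change of 0.13. This was adcy1b, a calcium-stimulated adenylyl cyclase whose mouse counterpart acts with the D4 receptor in photoreceptors. It was at 46.7, 20.9 and 27.1 in the mutants, against 107, 103 and 103 in wild type (log2 change -1.77, SE 0.33, adjusted p = 0.0448 by limma). All mutants were below all wild-type fish. The call was kept with DESeq2 (adjusted p = 6.61e-05), and by limma with TMM scaling (0.0477), library totals (0.0396), either other pseudocount and either other filter. But it was lost with edgeR (adjusted p = 0.0528), with limma without trend (0.0766) and with the replicate number as a block (0.0537). It was also lost without each library in turn (0.0674 without wild-type replicate 1 to 0.186 without mutant replicate 3). The beta-arrestin arrb1, which desensitises receptors, was at 423, 649 and 522 in mutants and at 221, 237 and 368 in wild type (log2 change 0.96, SE 0.24, adjusted p = 0.0898 by limma).

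The other 5 pathway lists had 0 calls. In the 7 tested genes for tetrahydrobiopterin, the cofactor of both hydroxylases, the median log2 change was -0.35. The gene gch1, for the first enzyme of that pathway, was at 38.3, 103 and 104 in mutants and at 122, 165 and 138 in wild type (adjusted p = 0.262 by limma). The median over 4 choline handling genes was 0.0028, over 2 genes for receptor assembly 0.56, over 7 monoamine neuron factors 0.15 and over 5 cholinergic amacrine factors 0.30. Of the receptor assembly genes, agrn was at 320, 338 and 283 in mutants and at 214, 178 and 224 in wild type, without overlap (log2 change 0.61, SE 0.15, adjusted p = 0.0856 by limma). Only 5 of 12 choline handling genes listed and 5 of 12 receptor assembly genes listed were among the genes measured. The closest to a call was etv5b, an ETS factor related to mouse Etv1, which acts in dopamine neurons of the olfactory bulb. The gene etv5b was at 9944, 12248 and 10277 in mutants and 15081, 18516 and 19896 in wild type (log2 change -0.72, SE 0.15, adjusted p = 0.0558 by limma). Which retinal cells held its RNA was not tested. The homeobox gene isl1, needed by starburst amacrine cells in mice and also made by other retinal neurons, averaged 6295 ± 654 in mutants and 5124 ± 521 in wild type (adjusted p = 0.225 by limma).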

How the data were processed

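Paired-end reads of 150 bp came from cDNA made from 10 ng of retinal RNA with a SMARTer kit, per the labels' protocols. Tools named in the submitters' processing notes are DESeq2 1.34.0 with R 4.1.3, HTSeq 0.9.1, STAR 2.7.2b and Trim Galore 0.6.1, with the build danRer10. Settings, strand use and annotation were not given in the sources used here. As deposited, the signal of a gene is its read count after division by 1 size factor per library. Whole reads were recovered, with 100% of values whole within 0.01 reads. Per gene, a log2 fold change and an adjusted p-value by the authors are deposited too, used only to count calls.

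Genotypes were compared with limma 3.58.1 (R 4.3.3; mean-variance trend, robust moderation) on log2(value + 1), with a filter at 10 in 3 libraries and Benjamini-Hochberg adjustment over all 11335 genes tested. edgeR 4.0.16 and DESeq2 1.42.0 were run on the recovered reads, and the tools were tested on simulated data. Members and lists were chosen with earlier results of these data known. Named with values were the 16 tested members with the smallest p, the 2 of each role with the highest mean and a set of defining enzymes, transporters and receptors; others were named to complete a family, after their values were seen, and so were the ratios of gene copies. Of the 64 member names 61 were current RefSeq symbols and 3 synonyms. No 2 libraries of the same genotype were copies (chi-square over degrees of freedom at least 58.7), and pairs across genotypes were not compared.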

Additional observations from a re-analysis of the deposited data

How the results depend on the processing

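The count of 0 members called stayed at 0 with TMM scaling, pseudocounts of 0.1 and 10, no filter, a filter at 50, limma without trend and edgeR. It was 7 with library totals as the scaling, 5 with DESeq2 and between 0 and 2 when each library was left out. The 2 were drd4b and slc18a3a, without wild-type replicate 1. Over all genes the calls numbered 296, but 2128 with library totals, 30 with limma without trend and 1220 with DESeq2, and 17 to 366 when each library was left out (17 without wild-type replicate 2, 23 without mutant replicate 3, 29 without mutant replicate 1 and 69 without wild-type replicate 3). The cause was not tested. Fish with the same replicate number were not paired by the labels, and their deviations from the genotype means correlated at 0.19, -0.14 and 0.23 for numbers 1, 2 and 3. Mutant and wild-type fish with unlike numbers correlated at -0.34 to 0.17. With the number as a replicate block 1 member was called, drd4b (adjusted p = 0.0335), and 289 genes in all, without sncga and adcy1b (0.0537 for either). Of 31 named members tested, the sign turned in 16 of 489 alternative values, in members with log2 changes near 0. It turned with library totals for mao (0.11) and th (0.12), with edgeR for htr1d (-0.0031) and with DESeq2 for htr1d (-0.013) and slc18a2 (-0.0043). Leaving out each library, it turned for adrb1 (-0.062 and -0.023, range up to 0.26), chrm5a (-0.0032 to 0.34), htr1d (-0.093 and -0.089, up to 0.27), th (-0.49 to 0.14), tph1b (-0.19 and -0.046) and slc18a2 (-0.22, -0.061 and -0.011, up to 0.20). With either pseudocount, the difference of each of the 8 copy ratios moved by less than 1 SD, the larger of the genotypes' SDs. With 3 fish per genotype, leaving 1 out cannot move a difference by 1 SD, so this measure does not judge those fits. Without wild-type replicate 1 the sign of the difference turned for htr1ab to htr1aa (-0.11, against 0.13) and tph1b to tph1a (0.11, against -0.31). Members near the filter, such as htr1b and th, are limited by their few reads. The gene htr1b was under the filter whenever a mutant was left out, so it has no value in those fits.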
